A study of Mus musculus with 6 samples.

Results

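The mitochondrial ribosomal proteins are nuclear-encoded proteins that are made in the cytosol and imported to build the ribosome of the mitochondrial matrix. Their genes were taken as every row of the deposited tables whose symbol starts with Mrpl or Mrps followed by a digit, a rule that uses names and no measured value. It found 76 genes of 11397 listed in either table, 47 named for the large subunit (Mrpl) and 29 named for the small subunit (Mrps). The table for Enniatin A held 75 of them, and the table for 17-AAG held all 76, Mrpl23 being listed in the latter alone. RNA came from 6 libraries of E0771 cells, a mouse breast cancer line with a C57BL/6 background. The 3 groups of 2 libraries received DMSO, Enniatin A (EnnA) at 7.4 µM or 17-AAG at 0.5 µM, and all were grown for 48 h in the same medium with serum. Both compounds were given for 24 h, and the labels do not state how long DMSO was given. The data therefore describe 1 cell line at 1 dose and 1 time per compound.

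17-AAG is an inhibitor of the chaperone HSP90 derived from geldanamycin. Enniatin A is a cyclic depsipeptide made by Fusarium fungi. The mitochondrial ribosome translates the few messages that are transcribed from mitochondrial DNA, which encode core subunits of the respiratory chain and of ATP synthase. Its small subunit binds the message and decodes it, and its large subunit forms the peptide bond and releases the new chain at the inner membrane. Compared with the bacterial ribosome it has less RNA and more protein, so that many of its proteins have no bacterial counterpart. Names do not always give the place of a protein in the particle. Mrps30 and Mrps18a lie in the large subunit of mammalian structures, and Mrps36 is now known as a part of the 2-oxoglutarate dehydrogenase complex.

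The authors listed 1 pooled FPKM (fragments mapped to a transcript, scaled to its length and to the library's total) per group and gene, so no value per library, SD or n stands beside any level. A change is given as log2((compound + 1)/(DMSO + 1)) of these FPKM. A gene is called higher or lower where the authors' deposited table gives it a q below 0.05. The error in brackets is the standard error implied by the p value in the authors' deposited table for the plain log2 ratio. It is an upper limit ("at most") where that p was the lowest the table gives, 5e-05. The same holds for the error of a difference between the compounds where either p was that low. Because the libraries are pooled, the calls rest on the spread that the authors' software estimated, and nothing in the labels tells if a pair of libraries stems from separate cultures. In bulk RNA, fewer cells with a transcript and less of it per cell cannot be told apart. Both tables use the same DMSO libraries but were scaled separately, the DMSO levels of members being 1.0956 to 1.0957 times as high in the 17-AAG table, so levels are compared within a table. The epithelial markers Epcam and Krt8 were the 2 listed of 8 sought, at 1.61 and 17.7 FPKM with DMSO, whereas the mesenchymal filament gene Vim stood at 2746 FPKM. Of the other markers, 1 of 6 immune genes (Cd14, 2.58 FPKM), 0 of 3 endothelial genes and 1 of 3 adipocyte genes (Fabp4, 430.8 FPKM) were listed. Fabp4 and Vim were called lower with both compounds, Fabp4 at 148.2 FPKM with EnnA and at 55.7 FPKM with 17-AAG. Pdgfrb was called higher with both, from 4.75 to 7.16 FPKM with EnnA and from 5.21 to 7.15 FPKM with 17-AAG, and Col1a1 higher with 17-AAG, from 0.620 to 3.95 FPKM. Krt8 was called lower with EnnA, at 11.2 FPKM, and higher with 17-AAG, from 19.3 to 29.3 FPKM. The part of these markers in the results below was not tested.

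With DMSO, the genes of the mitochondrial ribosome were abundant and spread over a wide range. Their median level was 52.6 FPKM in the EnnA table, against 14.0 FPKM over all listed genes, and 72 of 75 lay in the upper 5 of 10 equal expression classes. The highest member was Mrpl52 at 357.5 FPKM, followed by Mrpl33 at 265.5 FPKM and Mrpl13 at 197.4 FPKM. The lowest were Mrps36 at 1.59 FPKM, Mrps25 at 7.90 FPKM and Mrpl48 at 11.97 FPKM. In the 17-AAG table the lowest was Mrpl23, a protein of the peptide exit tunnel, at 0.558 FPKM with DMSO and 0.2801 FPKM with 17-AAG. These low values are poor evidence on subunits of the particle, since Mrps36 is now placed in another complex and Mrps25 and Mrpl48 have shared loci. Members without these limits still differed widely in listed level, such as Mrps11 at 14.6 FPKM and Mrpl52 at 357.5 FPKM with DMSO in the EnnA table. The members were also short, with a median exonic transcript length of 1223 bases against 2614 bases over all listed genes, and 51 of 75 fell in the 3 shortest of 10 equal length classes. The locus of 8 members overlaps that of another listed gene, so that reads could be split between them and their values are uncertain. These are Mrpl19 (with Gcfc2), Mrpl24 (with Rrnad1), Mrpl41 (with Wdr85), Mrpl48 (with Rab6a), Mrpl49 (with Syvn1), Mrpl53 (with Ccdc142), Mrps25 (with Nr2c2) and Mrps6 (with Slc5a3).

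**Figure D1:**
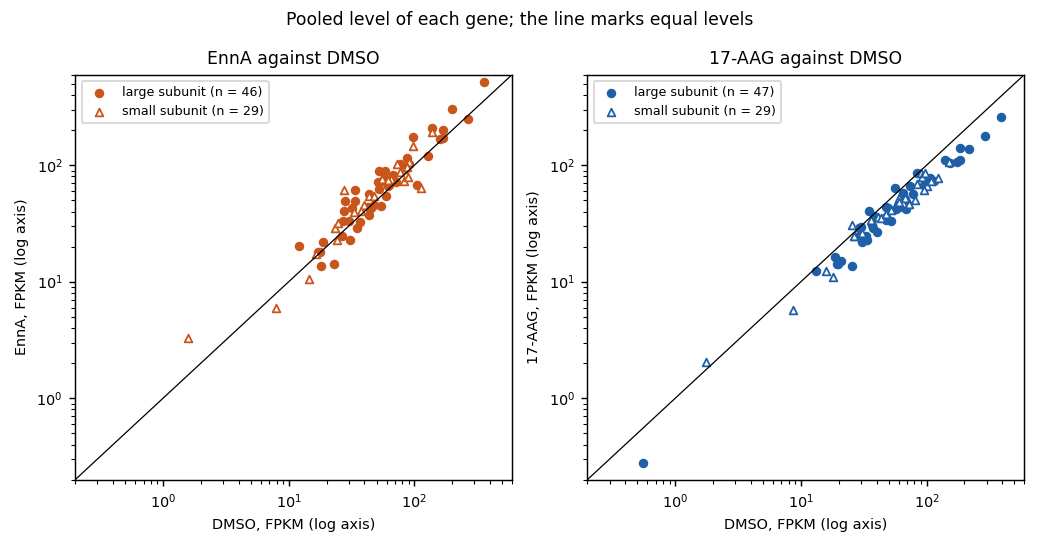
Pooled FPKM of each gene with the compound (vertical axis, log scale) against DMSO (horizontal axis, log scale), for EnnA on the left and 17-AAG on the right. Filled circles are large subunit genes and open triangles small subunit genes by name, and the line marks equal levels. With 17-AAG, 70 of 76 genes lie below the line, and with EnnA 55 of 75 lie above it.

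Promoters of these genes are known for binding NRF1, ETS-family factors (GABP among them) and YY1, regulators of nuclear genes for mitochondrial proteins. RefSeq promoter windows (GRCm38.p6, 250 bases before to 50 after a start) were at hand for 67 of the 76 genes, as 73 windows. 5 windows are printed 5′ to 3′ on the strand of the gene, because they belong to members the results turn on and show each of these motifs or its absence. Capitals mark the motif found, on either strand. The window of Mrpl32 (chr13:14612988-14613287, minus strand), among the largest rises with EnnA, holds the NRF1 motif, a palindrome. That of Mrpl35 (chr6:71823735-71824034, minus strand), called higher with EnnA and lower with 17-AAG, holds the YY1 motif. That of Mrpl52 (chr14:54426659-54426958, plus strand), the most abundant member, holds the ETS motif ACTTCCGG. That of Mrps11 (chr7:78782881-78783180, plus strand), which starts 42 bases from Mrpl46 on the other strand, holds the YY1 motif in reverse. That of Mrps18b (chr17:35916391-35916690, minus strand), the largest rise of all members, holds no exact match to the motifs searched, though it holds a near match to the NRF1 motif.
Mrpl32: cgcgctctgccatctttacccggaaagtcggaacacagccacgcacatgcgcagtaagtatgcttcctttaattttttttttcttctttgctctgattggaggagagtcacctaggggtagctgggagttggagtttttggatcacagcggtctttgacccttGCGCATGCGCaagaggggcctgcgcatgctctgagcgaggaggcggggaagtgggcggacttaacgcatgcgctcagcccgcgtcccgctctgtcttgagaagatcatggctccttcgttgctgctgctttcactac
Mrpl35: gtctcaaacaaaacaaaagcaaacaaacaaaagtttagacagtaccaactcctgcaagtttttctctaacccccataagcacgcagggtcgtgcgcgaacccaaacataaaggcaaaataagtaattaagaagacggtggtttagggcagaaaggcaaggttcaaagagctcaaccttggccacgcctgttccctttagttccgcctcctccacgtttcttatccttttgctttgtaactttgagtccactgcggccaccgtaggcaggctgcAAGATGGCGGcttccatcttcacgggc
Mrpl52: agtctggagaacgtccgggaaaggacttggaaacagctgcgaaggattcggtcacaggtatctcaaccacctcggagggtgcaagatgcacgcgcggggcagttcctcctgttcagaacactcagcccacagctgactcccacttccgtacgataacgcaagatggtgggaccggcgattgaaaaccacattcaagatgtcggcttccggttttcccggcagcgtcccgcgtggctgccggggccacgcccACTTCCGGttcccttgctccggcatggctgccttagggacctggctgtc
Mrps11: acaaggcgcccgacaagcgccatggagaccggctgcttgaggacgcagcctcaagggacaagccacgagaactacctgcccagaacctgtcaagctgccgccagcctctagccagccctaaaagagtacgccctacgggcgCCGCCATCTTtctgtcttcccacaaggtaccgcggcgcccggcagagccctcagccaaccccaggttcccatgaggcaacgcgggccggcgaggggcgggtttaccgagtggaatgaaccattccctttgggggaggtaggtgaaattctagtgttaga
Mrps18b: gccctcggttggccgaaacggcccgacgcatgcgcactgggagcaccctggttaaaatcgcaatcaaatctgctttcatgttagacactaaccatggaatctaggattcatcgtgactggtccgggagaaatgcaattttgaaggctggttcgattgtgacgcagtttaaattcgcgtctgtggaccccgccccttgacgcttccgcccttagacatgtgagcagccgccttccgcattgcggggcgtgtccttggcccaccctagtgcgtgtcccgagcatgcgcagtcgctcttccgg

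The ETS motif was found in 12 of the 73 member windows (16.4%), against 8.62% of the windows of listed genes and 3.89% of all 32851 windows. The NRF1 motif was found in 3 member windows (4.11%, against 2.10% and 0.971%), those of Mrpl9, Mrpl32 and Mrpl39, and the YY1 motif in 5 (6.85%, against 2.18% and 0.852%). The E-box CACGTG, bound by MYC and its partners, was no more frequent than in listed genes, at 9.59% against 10.2%, and 7.15% of all windows. Neither the site TGATGCAAT of ATF4 with C/EBP factors nor the heat shock element bound by HSF1 was found in any member window, and both are rare in listed genes, at 0.112% and 0.509%. All motifs were searched as fixed letters on both strands, so near matches were not counted. The letters of one do not overlap those of another in the printed windows. Of the 12 members with the ETS motif, 1 was called higher (Mrpl52) and 1 lower (Mrpl18) with EnnA, and 8 were called lower with 17-AAG. Of 45 members with a window but no motif, 25 were called lower with 17-AAG, so genes with and without these letters were both among those lowered. Of all listed genes, 16.1% were called lower with 17-AAG, and with EnnA 24.3% were called higher and 24.9% lower.

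EnnA moved single members of the mitochondrial ribosome in both directions. Of 75 listed, 22 were called higher and 6 lower, and 47 were not called. That is 29.3% higher and 8% lower, where 24.3% of all listed genes were called higher and 24.9% lower. The median change was 0.21 on the log2 scale, from -0.83 to 1.12, against -0.01 over all listed genes. Highly expressed genes, and those of the shortest length class, stood higher with EnnA throughout the table, so this shift was compared with genes of like expression and length. With only the all-gene median subtracted, 24 members were higher and 6 lower (all genes 24.7% and 24.7%). With the trend over expression subtracted, 12 members were higher and 9 lower (all genes 23.4% and 23.5%), and the members' median was 0.05. With locus length added to that trend, 11 were higher and 7 lower (all genes 23.3% and 22.8%). With the trend over expression and transcript length subtracted, 11 were higher and 11 lower (all genes 23.4% and 23.2%), and the median was 0.03. The rises of Mrpl1, Mrpl4, Mrpl13, Mrpl21, Mrpl24, Mrpl32, Mrpl35, Mrps18b and Mrps36 and the falls of Mrpl18, Mrpl22, Mrpl41 and Mrps21 remained called under all 4 subtractions tried.

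The largest rise was that of Mrps18b, 1 of 3 mammalian relatives of bacterial ribosomal protein S18 (mm9 chr17:36047329-36053314). It stood at 27.7 FPKM on DMSO and at 61.2 FPKM on EnnA, a log2 change of 1.12 (SE at most 0.28). Its relative Mrps18a, at 55.2 FPKM with DMSO and 77.3 FPKM with EnnA, was also called higher, by 0.48 (SE 0.16). The third relative, Mrps18c, was listed at 91.2 FPKM and 107.5 FPKM and was not called. Among large subunit genes, Mrpl21 (chr19:3283046-3292837) rose from 33.4 to 60.7 FPKM, a log2 change of 0.84 (SE at most 0.21). Mrpl32 (chr13:14702567-14705304), whose protein is known to need cleavage by the m-AAA protease before it joins the ribosome, rose from 97.6 to 174.1 FPKM, a log2 change of 0.83 (SE at most 0.21). Both are counterparts of bacterial large subunit proteins, and both stood well above their DMSO level while most members moved little. Mrpl1 (chr5:96639133-96695728), of the stalk that lies beside the exit site in bacterial ribosomes, rose from 28.1 to 49.0 FPKM, by 0.78 (SE at most 0.20). Mrpl24 (chr3:87723465-87734117), near the mouth of the exit tunnel, rose from 52.3 to 90.0 FPKM, by 0.77 (SE at most 0.19), but its locus is shared. The scarce Mrps36 was listed at 1.59 FPKM with DMSO and 3.31 FPKM with EnnA, a log2 change of 0.73 (SE 0.40) that the authors called. Mrpl48, with a like change of 0.72 but an SE of 0.59 and a shared locus, was not called.

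The falls with EnnA were fewer and included abundant members. Mrps21 (chr3:95666574-95674542), the counterpart of bacterial S21, fell from 112.7 to 63.1 FPKM, a log2 change of -0.83 (SE at most 0.21). Mrpl18 (chr17:13104220-13108957), of the central protuberance at the top of the large subunit, fell from 104.0 to 67.6 FPKM, by -0.61 (SE 0.16). Mrpl41 (chr2:24817941-24830618), a mitochondria-specific protein whose locus is shared, fell from 23.1 to 14.3 FPKM, by -0.65 (SE 0.18). The lowered genes thus came from both subunits. Mrps11, the counterpart of bacterial S11 of the small subunit platform, fell from 14.6 to 10.4 FPKM, by -0.44 (SE 0.18). Mrpl22, which lines the exit tunnel, fell from 30.7 to 22.7 FPKM, by -0.42 (SE 0.17). The last of the 6, Mrpl11 of the stalk that recruits translation factors, changed by -0.37 (SE 0.16).

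**Figure D2:**
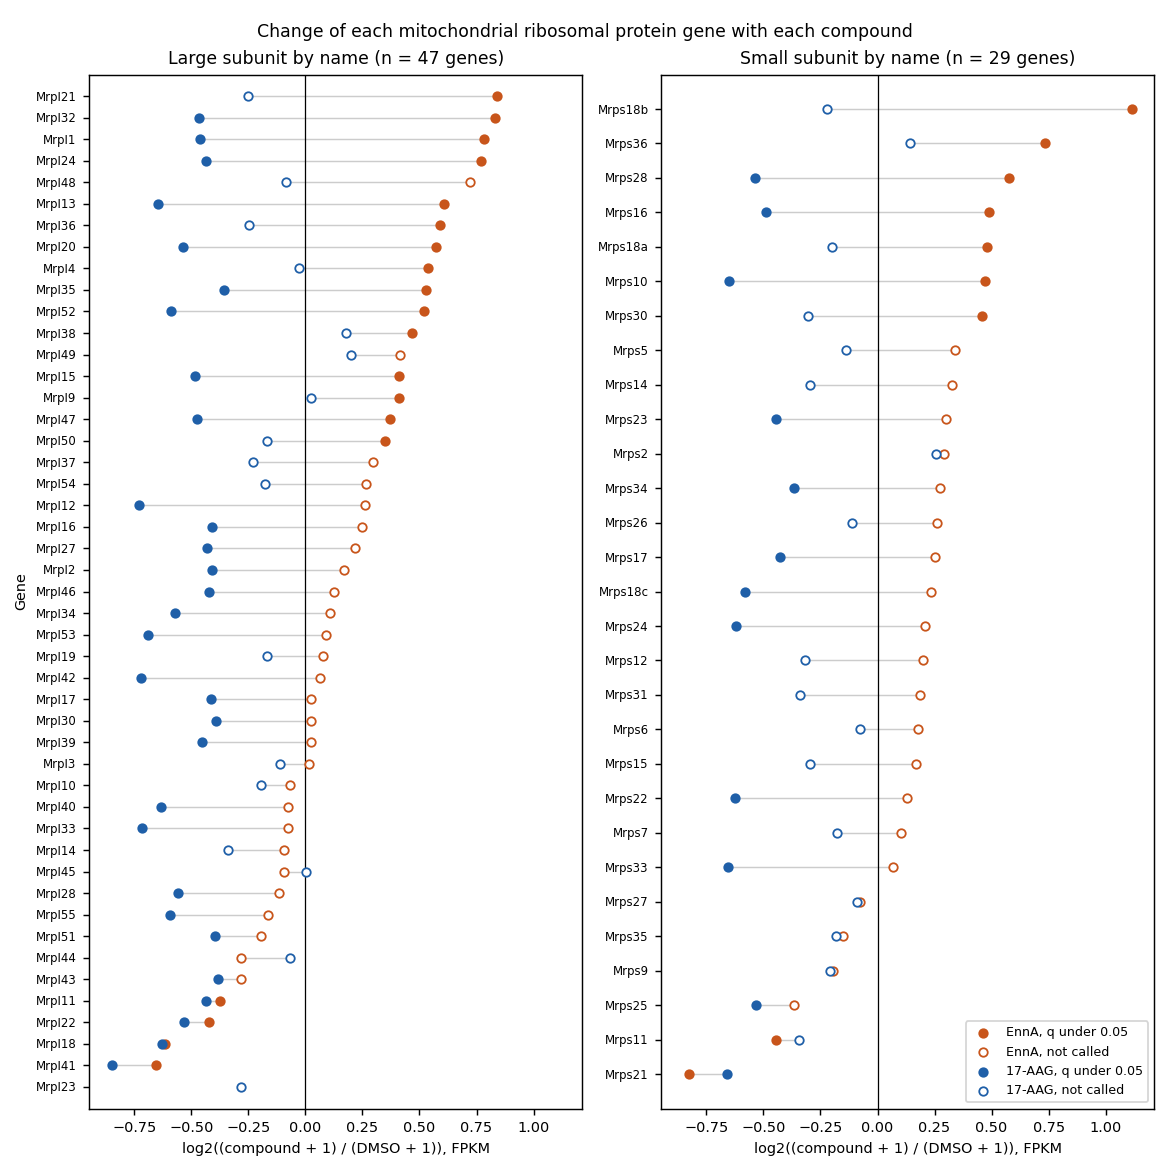
Log2 change of every gene with EnnA (orange) and 17-AAG (blue) against DMSO on the horizontal axis, with 47 large subunit genes on the left and 29 small subunit genes on the right, ordered by the EnnA change. Filled points passed the q threshold of the authors' deposited table. Orange points run from -0.83 to 1.12, and filled blue points all lie below 0.

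With 17-AAG the listed levels of these genes were mostly lower. Of 76 members, 42 were called lower and 34 were not called. By the authors' Cuffdiff test 0 were called higher. The share called lower was 55.3%, where 16.1% of all listed genes were called lower and 15.6% higher. At an unadjusted p under 0.05 in the same Cuffdiff test, 0 members were higher, against 2268 of all 11305 listed genes. The median change was -0.39 on the log2 scale, from -0.85 to 0.26, against -0.01 over all listed genes, and 70 of 76 members lay below 0. Abundant and short genes were lower with 17-AAG throughout the table. In the highest of 10 expression classes 38.8% of genes were called lower with a median of -0.28, and in the shortest of 10 length classes 32.9% were called lower with a median of -0.26. With only the all-gene median subtracted, 41 members were lower and 0 higher (all genes 15.6% and 16%). With the expression trend subtracted, 16 members were called lower and 1, Mrpl38, higher (all genes 12.3% and 12%), and the members' median was -0.23. With locus length added to that trend, 7 were lower and 2, Mrpl38 and Mrps2, higher (all genes 11.9% and 11.7%). With the trend over expression and transcript length subtracted, 6 were lower and Mrpl38 was higher (all genes 11.1% and 10.8%), and the median was -0.15. With both expression and length in the trend, the share of members called lower was thus no higher than that of all genes. The members' median nonetheless stayed below 0, and few members were called higher. The groups of like genes include the members themselves, so a fall that members share with their group is subtracted too. Only the falls of Mrpl41, Mrps25 and Mrps33 remained called under all 4 subtractions tried, and the first 2 of these have shared loci.

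**Figure D3:**
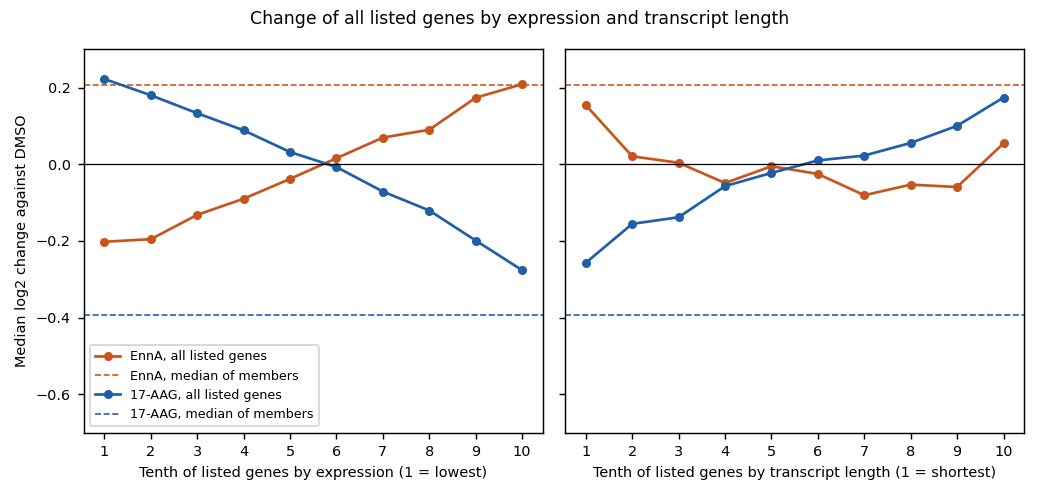
Median log2 change against DMSO (vertical axis) of all listed genes in 10 equal classes of expression (left) and of exonic transcript length (right), for EnnA (orange) and 17-AAG (blue). Dashed lines mark the median over the Mrpl and Mrps genes, 0.21 with EnnA and -0.39 with 17-AAG. The all-gene median runs from -0.20 in the lowest to 0.21 in the highest expression class with EnnA, and from 0.22 to -0.28 with 17-AAG.

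**Figure D4:**
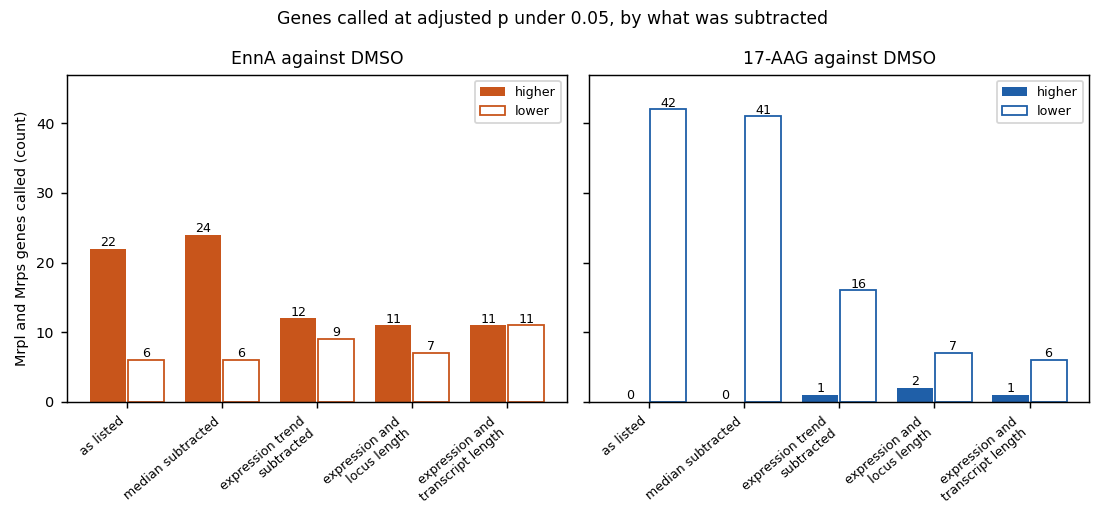
Number of Mrpl and Mrps genes called higher (filled) and lower (open) against DMSO at an adjusted p under 0.05 (vertical axis), as listed by the authors and after subtraction of the all-gene median or of trends over expression and length. With 17-AAG the count of lowered genes is 42 as listed and 6 after the trend over expression and transcript length, and with EnnA the count of raised genes is 22 and 11.

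The lowered members included several of the most abundant. Mrpl12 (chr11:120345982-120350068), the stalk protein that is also known to bind the mitochondrial RNA polymerase, went from 184.5 to 111.0 FPKM, a log2 change of -0.73 (SE at most 0.18). Mrpl42 (chr10:94943439-94964561), a mitochondria-specific protein, went from 175.6 to 106.1 FPKM, by -0.72 (SE at most 0.18). Mrpl33 (chr5:31916323-31925017), a small protein with a bacterial counterpart, went from 290.9 to 176.7 FPKM, by -0.72 (SE at most 0.18). None of these 3 was called with EnnA, where they stood at 201.8, 167.6 and 251.6 FPKM against 168.4, 160.3 and 265.5 FPKM with DMSO. Mrpl41 went from 25.3 to 13.6 FPKM, by -0.85 (SE at most 0.22), and Mrpl53, also with a shared locus, from 69.1 to 42.5 FPKM, by -0.69 (SE at most 0.17). The 5 largest falls were thus all in genes of the large subunit. In the small subunit Mrps21 went from 123.5 to 77.8 FPKM, by -0.66 (SE at most 0.16). Mrps33, a mitochondria-specific protein, went from 17.9 to 10.99 FPKM, by -0.66 (SE 0.19), against 16.3 and 17.1 FPKM in the EnnA table. The members with positive values, Mrps2 at 0.26, Mrpl49 at 0.20, Mrpl38 at 0.18, Mrps36 at 0.14, Mrpl9 at 0.03 and Mrpl45 at 0.00, were not called.

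The large and small subunits were compared by their medians, without a test, since members are not replicates. With EnnA, 15 of 46 large subunit genes were called higher (32.6%) and 4 lower (8.7%), with a median of 0.15. Of 29 small subunit genes, 7 were called higher (24.1%) and 2 lower (6.9%), with a median of 0.24. Of all listed genes, 24.3% were called higher and 24.9% lower, so the small subunit share called higher was near that of all genes. With 17-AAG, 30 of 47 large subunit genes (63.8%) were called lower with a median of -0.42, and 12 of 29 small subunit genes (41.4%) with a median of -0.32. The share of all listed genes called lower was 16.1%. The large minus small difference of medians was -0.09 with EnnA and -0.10 with 17-AAG. No spread of a list's median can be had from these tables, so the differences are given as values only. With Mrps30 and Mrps18a counted in the large subunit, as in mammalian structures, the differences were -0.02 and -0.07. Proteins with a bacterial counterpart and mitochondria-specific ones also overlapped broadly. With EnnA 15 of 45 with a counterpart were higher (33.3%) and 5 lower (11.1%), with a median of 0.22. Of 30 specific ones, 7 were higher (23.3%, near the share of all genes) and 1, Mrpl41, lower (3.33%), with a median of 0.16. The specific ones include Mrps18a and Mrps18b, 2 of the 7, which were set there although they are related to bacterial S18. Mrps36, also among the 7, was kept there and in the small subunit counts, although it is now placed in another complex. With 17-AAG 28 of 46 with a counterpart were lower (60.9%, median -0.42), and 14 of 30 specific ones (46.7%, median -0.32).

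Groups by place in the ribosome were mixed within themselves. In the stalk, Mrpl10, Mrpl11 and Mrpl12 changed by -0.07, -0.37 and 0.26 with EnnA, and by -0.19, -0.43 and -0.73 with 17-AAG. Only Mrpl11 was called with EnnA, whereas Mrpl11 and Mrpl12 were called lower with 17-AAG. At the exit tunnel, Mrpl24 and Mrpl47 were called higher and Mrpl22 lower with EnnA, and all 3 were called lower with 17-AAG. Mrpl45, which tethers the ribosome to the inner membrane, was listed at 26.4 and 24.7 FPKM with DMSO and EnnA and was called with neither compound. In the central protuberance, EnnA raised Mrpl38 by 0.47 and lowered Mrpl18, and 17-AAG lowered Mrpl18, Mrpl27, Mrpl40 and Mrpl46. Near the peptidyl transferase centre, Mrpl2, Mrpl3 and Mrpl16 were not called with EnnA, and Mrpl2 and Mrpl16 were called lower with 17-AAG, by -0.41 each. For the head of the small subunit only 4 genes were grouped, Mrps7, Mrps9, Mrps10 and Mrps14, which is not a full list of that part. Of these, Mrps10 alone was called with either compound, by 0.47 with EnnA and -0.65 with 17-AAG. Mrps12, of the decoding centre, changed by 0.20 and -0.32 and was called with neither.

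To compare the compounds directly, the difference between the 2 changes was tested for 10922 genes, with errors combined as if the tables were independent. The tables share the DMSO libraries, so the changes of one compound are not independent of those of the other. EnnA stood above 17-AAG for 39 of 75 members and below it for 0, where 19.3% of all genes were called higher and 18.9% lower. Without adjustment, 47 members passed a p under 0.05 in this z test, 0 of them below 17-AAG. Over all 10922 genes 5080 passed that cut, 2506 of them below 17-AAG. The median difference was 0.55 on the log2 scale against 0.02 over all genes, and the counts were 24 of 46 in the large and 15 of 29 in the small subunit. With the all-gene median subtracted from both changes, 39 members were higher and 0 lower (all genes 19.2% and 18.9%). With the expression trend subtracted, 15 were higher and 0 lower (all genes 15.7% and 16.4%). With locus length added, 11 were higher and 2, Mrpl18 and Mrps21, lower (all genes 15.6% and 15.5%). With the trend over expression and transcript length subtracted, 11 members were higher and 2, Mrpl14 and Mrps21, lower (all genes 15.3% and 15.4%). The differences of Mrpl1, Mrpl13, Mrpl21, Mrpl24, Mrpl35, Mrps18b and Mrps33 were the 7 called under all 4 subtractions tried.

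The largest difference was that of Mrps18b, 1.34 (SE at most 0.32), which rose with EnnA and was listed at 30.4 FPKM with DMSO and 25.9 FPKM with 17-AAG. Mrpl32 differed by 1.30 (SE at most 0.26), going from 106.9 to 77.1 FPKM with 17-AAG. Mrpl13, the counterpart of bacterial L13, differed by 1.25 (SE at most 0.22). It went from 197.4 to 301.1 FPKM with EnnA and from 216.3 to 137.9 FPKM with 17-AAG. The changes of these genes lay far apart under the 2 compounds. Mrpl1 differed by 1.25 (SE at most 0.26), with 30.7 FPKM on DMSO and 22.01 FPKM on 17-AAG. Mrpl24 differed by 1.21 (SE at most 0.26), with 57.3 FPKM on DMSO and 42.1 FPKM on 17-AAG. Further members called higher with EnnA and lower with 17-AAG are given with both changes side by side. They are Mrps10 (0.47 and -0.65), Mrps28 (0.58 and -0.54), Mrpl52 (0.52 and -0.59), Mrpl20 (0.57 and -0.53), Mrps16 (0.49 and -0.49), Mrpl15 (0.41 and -0.48), Mrpl35 (0.53 and -0.35) and Mrpl47 (0.37 and -0.47). At the other end stood members whose changes were nearly equal. Mrpl18 changed by -0.61 and -0.63 and Mrps9 by -0.20 and -0.21, with differences of 0.01 each. The SE was at most 0.22 for Mrpl18 and was 0.21 for Mrps9. The difference was below 0 but not called for 4 members, Mrpl44 at -0.22 (SE 0.22), Mrps21 at -0.17 (SE at most 0.26), Mrps11 at -0.10 (SE 0.25) and Mrpl45 at -0.10 (SE 0.21).

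Many of these genes start close to another gene transcribed from the opposite strand, and 25 have such a neighbour within 1000 bases in RefSeq. In 22 pairs the neighbour is listed and is no member itself, the starts lying 32 to 935 bases apart. With 17-AAG, 12 of these 22 members were called lower and none higher, with a median of -0.39, whereas 2 of the 22 neighbours were called lower and 5 higher, with a median of 0.19. With EnnA, 5 members were higher and 2 lower (median 0.18), and 4 neighbours were higher and 7 lower (median -0.12). Beside these stand the shares of all listed genes, 15.6% higher and 16.1% lower with 17-AAG and 24.3% higher and 24.9% lower with EnnA, and the neighbours' counts are too few to read apart from them. The neighbours were less abundant, with a median of 7.09 against 45.5 FPKM on DMSO in the 17-AAG table, and longer, at 2857 against 1124 bases, which are the properties that moved with the change over all genes, and their part in this contrast was not tested. Mrps18b rose by 1.12 with EnnA while Ppp1r10, a regulatory subunit of protein phosphatase 1 that starts 756 bases away, fell by 1.04. Mrpl41 changed by -0.85 with 17-AAG, and Pnpla7, a lysophospholipase, by 0.79. Mrpl2 changed by -0.41 and Klc4, a kinesin light chain, by 0.47. Mrps12 was listed at -0.32, not called, and Sars2, the mitochondrial seryl-tRNA synthetase, changed by 0.59. In other pairs both genes moved the same way. Mrpl32 and the proteasome gene Psma2 changed by -0.47 and -0.60 with 17-AAG, and Mrpl21 and the helicase gene Ighmbp2 by 0.84 and 0.46 with EnnA. In the 1 pair of members, Mrps11 fell by 0.44 with EnnA, whereas Mrpl46 was listed at 0.12.

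**Figure D5:**
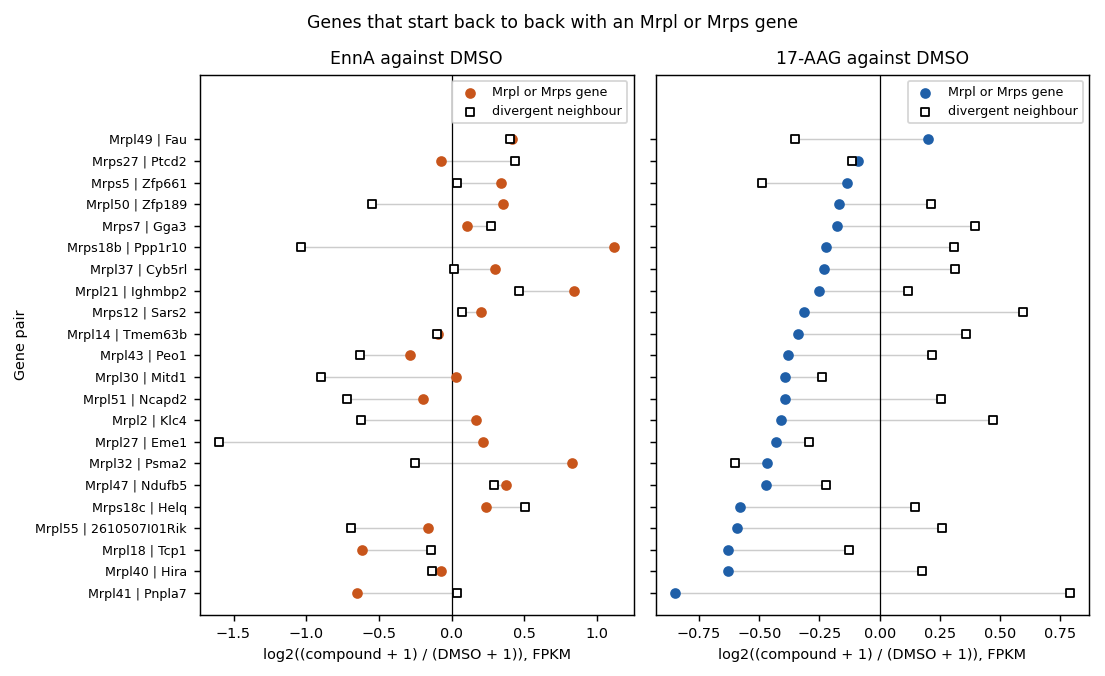
Log2 change with EnnA (left) and 17-AAG (right) against DMSO on the horizontal axis, for 22 Mrpl or Mrps genes (filled circles) and the listed gene that starts within 1000 bases on the opposite strand (open squares), 1 pair per row. With 17-AAG the median is -0.39 for the circles and 0.19 for the squares.

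The other genes of mitochondrial translation were counted against the shares of all listed genes, which were 24.3% higher and 24.9% lower with EnnA and 15.6% higher and 16.1% lower with 17-AAG. The 8 genes listed as ribosomal proteins with other names include Oxa1l, which encodes the insertase that receives the new chains. Of the 8, 17-AAG lowered Chchd1 (by -0.89), Aurkaip1 (by -0.49) and Dap3 (by -0.48) of the small subunit. It also lowered Ict1 (by -0.42), a peptide release factor built into the large subunit, and raised none. EnnA raised Mrp63 (by 0.65) and Chchd1 (by 0.37) and lowered Oxa1l (by -0.42). The loci of Chchd1 (with 6230400D17Rik) and Oxa1l (with Slc7a7) are shared, so their values are uncertain. After the trend over expression and transcript length, 0 of the 8 were called lower with 17-AAG and Ptcd3 was called higher (0.49), while their median was still -0.26, from -0.45 as listed. With EnnA, Mrp63 was then higher (0.59) and Aurkaip1 (-0.47), Oxa1l (-0.44) and Ptcd3 (-0.34) lower. Among assembly factors, 6 of 25 were higher and 4 lower with EnnA (median 0.13). They were led by Ftsj2 (-0.95), an rRNA methyltransferase, Rpusd4 (0.69), a pseudouridine synthase, Mterfd1 (0.64, its locus shared with Ptdss1) and the GTPase Noa1 (-0.63). With 17-AAG, 2 of 26 were lower (median -0.12), the GTPase Mtg1 (-0.61) and Malsu1 (-0.51). The share of assembly factors raised by EnnA, 24%, was close to that of all listed genes, and the share lowered by 17-AAG, 7.69%, was under it.

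Of 15 translation factors, EnnA lowered 3 and raised none (median -0.22), namely Mtfmt (-0.73), which formylates the initiator tRNA, the release factor gene Mtrf1 (-0.55) and the initiation factor gene Mtif2 (-0.52). 17-AAG lowered Tsfm (-0.49) and Tufm (-0.40), both elongation factors, and Pdf (-0.39), and raised Lrpprc (0.41), which stabilises mitochondrial messages, with a median of -0.22. Of 21 genes of mitochondrial DNA transcription and RNA processing, EnnA raised 5 and lowered 7 (median -0.21), led by Mterf (-1.44), Fastkd5 (-1.02), Trmt10c (0.74) and Mtpap (0.71). 17-AAG lowered Ssbp1 (-0.92), the mitochondrial single-strand DNA-binding protein, and Hsd17b10 (-0.45), and raised the RNA polymerase gene Polrmt (0.36), with a median of -0.12. Of 20 mitochondrial aminoacyl-tRNA synthetases, EnnA lowered 7 and raised 3 (median -0.17), among them Pars2 (-1.68), Mars2 (-1.07) and Iars2 (-0.86). 17-AAG raised 4 and lowered 2 of these (median 0.00), led by Tars2 (-1.06), Cars2 (0.64), Sars2 (0.59) and Lars2 (0.43). With EnnA the shares higher and lower were 0% and 20% of the translation factors and 23.8% and 33.3% of the transcription and RNA processing genes. For the synthetases they were 15% and 35%, and for all listed genes 24.3% and 24.9%. With 17-AAG the shares were 6.67% and 20%, 4.76% and 9.52%, and 20% and 10%, in the same order. For all listed genes they were 15.6% and 16.1%. Some shares lay near those of all genes and others did not. Counts this small are not read as results about the lists, and no list was tested.

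2 larger families of short, abundant transcripts were set beside the mitochondrial ribosome. Of 78 cytosolic ribosomal protein genes, 52 were higher and 3 lower with EnnA (median 0.51), and 2 were higher and 32 lower with 17-AAG (median -0.31). Of 78 nuclear-encoded subunits of the respiratory chain and ATP synthase, 12 were higher and 12 lower with EnnA (median 0.04), and 38 were lower and none higher with 17-AAG (median -0.35). The shares of all listed genes were 24.3% higher and 24.9% lower with EnnA, and 15.6% higher and 16.1% lower with 17-AAG. After the trend over expression and transcript length, the cytosolic ribosomal proteins had 32 higher and 6 lower with EnnA (median 0.27), and 8 higher and 3 lower with 17-AAG (median 0.07). The respiratory chain genes then had 2 higher and 24 lower with EnnA (median -0.19), and 1 higher and 3 lower with 17-AAG (median -0.03). After that trend the shares of all genes were 23.4% higher and 23.2% lower with EnnA, and 10.8% higher and 11.1% lower with 17-AAG. The mitochondrial ribosomal proteins lay between the 2 families with EnnA, at medians of 0.21 as listed and 0.03 after the trend. With 17-AAG they lay below both, at -0.39 as listed and -0.15 after the trend. No test of a difference between families was made. Across the members the change and transcript length had a Spearman rho of 0.04 with EnnA (75 genes) and 0.37 with 17-AAG (76 genes), and the change and expression a rho of 0.20 and -0.34. These are descriptions over genes that share the same pooled libraries. Over all matched genes the rho with transcript length was -0.05 with EnnA and 0.28 with 17-AAG, and that with expression was 0.25 and -0.40.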

How the data were processed

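Total RNA was sequenced as mRNA libraries from 6 libraries, 2 per group. Per the submitters' processing notes STAR, Cufflinks, Cuffdiff and the mouse build mm9 were used; their versions and settings were not given in the sources used here. From the libraries the authors made 2 deposited tables with 1 pooled FPKM per group and gene. They also hold the authors' log2 ratio (DMSO over compound), and the authors' p-value and q-value. The total count and depth per library are unknown, so no interval from counting can be given.

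Log2 changes with a pseudocount of 1 FPKM, errors implied by p, and trends (the median change of genes of like expression, or expression and length, in groups) were computed with Python 3.11.15, pandas 2.3.3, NumPy 2.4.6 and SciPy 1.17.1. The compounds' changes were compared by a z test over 10922 genes with Benjamini-Hochberg adjustment, a normal approximation. The z test was run on simulated data drawn as independent normal noise with these same errors. Such a run cannot check the normal shape, the errors implied by p or the effect of the shared DMSO libraries. Figures used matplotlib 3.10.9. After a trend was subtracted, the same z test was used within a table. An upper limit on an error makes these calls fewer. Exonic transcript lengths came from GENCODE M21 (GRCm38), which matched 99.2% of listed genes by name, and promoters and start sites from RefSeq (GRCm38.p6). Loci are in mm9 as deposited. The members, the gene lists and the tests were chosen with earlier results of these data known, and the groups by place in the ribosome, the divergent pairs and the transcript length trend after these data were seen. Named members were the 5 largest called rises and falls per comparison, those called in opposite directions, the 5 largest differences and the 3 highest and lowest by DMSO level; others named complete a group by place, a pair or a list of positive values. Up to 4 called genes were named per list.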

Additional observations from a re-analysis of the deposited data

How the results depend on the processing

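Only pooled values are listed, so no library could be left out and depth sets no stated limit. No paired analysis was possible because the deposited tables give 1 pooled value per group. Subtracting the all-gene median, changing the pseudocount, a minimum of 1 or 5 FPKM, leaving out members with shared loci and a correlation of 0.5 between the errors left the median of all members between 0.20 and 0.22 with EnnA and between -0.41 and -0.39 with 17-AAG, and moved no count by over 1.5 times. Subtracting the all-gene median ended or turned none of the calls of named members. Subtracting the expression trend, the expression and locus length trend, or the expression and transcript length trend (the last chosen after seeing the data) gave, in this order, these values. With EnnA the median of all members was 0.049, 0.044 and 0.033, and 12, 11 and 11 members were higher. The small subunit median was 0.063 and 0.036 under the last 2, and 11 were lower under the last. With 17-AAG the median was -0.23, -0.14 and -0.15, that of the large subunit -0.25, -0.18 and -0.21, and that of the small subunit -0.079 and -0.091 under the last 2. Members lower with 17-AAG were 16, 7 and 6, and higher 1, 2 and 1 (Mrpl38 each time, with Mrps2 under locus length). EnnA stood above 17-AAG for 15, 11 and 11 members, and below it for 2 under each of the last 2 (Mrps21 with Mrpl18 or Mrpl14). At q under 0.01, 24 members were lower and 0 higher with 17-AAG. With EnnA 17 were higher and 3 lower (Mrpl18, Mrpl41 and Mrps21) at that cut. The share of all genes at q under 0.01 was not computed, so these counts are not read as a result about the members. Of the 53 values of named members 41 were called as listed, of which 17, 22 and 23 lost their call under the 3 trends, and 1 uncalled value, Mrpl33 with EnnA, was called lower (-0.35) under the last. The cause was not tested.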
